A study of Mus musculus with 35 samples.

Results

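The 10 genes described here belong to the immediate early response, the first wave of transcription after a cell is stimulated: Fos, Fosb, Jun, Junb, Jund, Egr1, Egr2, Ier2, Ier3 and Atf3. They were taken by symbol from the 45143 genes of the deposited count table that matched a symbol, and all 10 were present. The libraries are RNA-seq of microglia, the resident macrophages of the central nervous system, sorted with CD11b and CD45 antibodies from mouse spinal cord. They were analysed as 35 libraries, each from 1 mouse per the labels.

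The mice were rNLS8 (+/+), which carry NEFH-tTA and a tetO human TDP-43 transgene, or WT (-/-) littermates, all of the mixed C57BL/6J X C3HeJ F1 strain and all kept on doxycycline until 8-12 weeks of age. NEFH is a neurofilament promoter, which drives expression in neurons; whether the sorted cells held transgene RNA was not tested. The mouse gene Tardbp ran from 30.8 to 70.6 CPM in controls (median 43.0), from 42.2 to 58.7 in early disease, from 36.4 to 151 in late disease (median 45.0) and from 37.5 to 68.9 in recovery. Early disease is 7 rNLS8 mice kept 2 weeks off doxycycline, late disease is 7 rNLS8 mice kept 6 weeks off, and recovery is 7 rNLS8 mice kept 6 weeks off and then 1 week on. The control group has 14 mice: 6 rNLS8 mice that stayed on doxycycline, and WT mice kept 2 weeks off (4 mice), 6 weeks off (1 mouse) or 6 weeks off and 1 week on (3 mice). The comparisons of early disease, late disease and recovery with control all use these same 14 controls, so they are not independent of each other.

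Immediate early genes are transcribed within minutes of a signal, without new protein synthesis, largely through serum response factor, its ternary complex partners and CREB, which MAP kinases switch on. FOS and JUN proteins pair through leucine zippers to form AP-1, while the EGR proteins bind DNA with zinc fingers. In microglia these genes are also known to respond to tissue dissociation and sorting, so their levels in sorted cells carry that history.

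Total expected counts were 13.9 to 20.4 M per library. The share of each library's TPM that falls in genes outside the table was 3.76 to 30.75% in controls, 2.32 to 4.58% in late disease and 4.09 to 8.86% in recovery. Library names start with a code that the deposited sample table lists as a date, with no word on what was done then. All 7 recovery libraries have the code 0803, which no other library has, so recovery and this code cannot be told apart; 9 controls have 0810, the other 5 controls have 1019 or 1102, and the early and late libraries have 1019, 1102 or 1130. Itgam, which encodes CD11b, was at 1040 to 2242 CPM in controls, and Ptprc, which encodes CD45, at 330.4 to 502. Markers of microglia were high throughout, with a summed level of 62990 to 81540 CPM (counts scaled to the library's total) in controls and 45040 to 69100 in late disease, where 5 of 10 fell. Neutrophil markers summed to 456 to 853 CPM in controls and 794 to 7770 in recovery, where 11 of 12 rose. Most of the control sum was Csf3r, at 437.5 to 775.2 CPM. The control medians of Ngp, Camp and Lcn2 were 0.122, 0.067 and 0 CPM. Monocyte markers summed to 5.62 to 26.3 CPM in controls, 32.0 to 158 in late disease, where 2 of 7 tested rose, and 67.1 to 581 in recovery, where 6 of 7 rose. Of 6 T and NK cell markers, Cd3e, Trbc2 and Gzma were at 0 in every library.

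In mm10 with GENCODE M21, the Fos family members lie apart, Fos (chr12:85473890-85477273, plus strand) and Fosb (chr7:19302696-19310051, minus strand). The Jun family is Jun (chr4:95049034-95052222, minus strand), Junb (chr8:84974484-84978718, minus strand) and Jund (chr8:70698949-70700616, plus strand), and Egr2 is at chr10:67535475-67542188, plus strand. The others are Ier2 (chr8:84661331-84662852, minus strand), Ier3 (chr17:35821684-35822923, plus strand) and Atf3 (chr1:191170296-191218039, minus strand). Junb, Jund and Ier2 thus share a chromosome.

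Sequence from just before the transcription start was available from RefSeq (GRCm38.p6) for 8 of the 10 genes; Egr1 and Ier2 are named only. Windows of 250 bases before each start were searched on both strands for TGACGTCA (the CREB site), TGACATCA (a variant of it), TGANTCA (the AP-1 site), GCGTGGGCG (the EGR site), TATAAA and CCAAT, and by name for the CArG box that serum response factor binds and the NF-kB site. Egr2 has 5 listed starts, and 4 of those windows held a CArG box, but windows 3, 4 and 5 overlap and hold the same box. The windows below are shown because the first 3 genes rose in late disease while Jun did not pass the test, and each has a match in capitals: a CArG box in Egr2 (72 bases before the start; chr10:67537316-67537565, plus strand, inside 2 longer Egr2 transcripts), an NF-kB site in Ier3 (92 bases before; chr17:35821463-35821683, plus strand, without the last 29 bases, which GENCODE M21 places in an exon), an NF-kB site in Fos (214 bases before; chr12:85473640-85473889, plus strand) and TGACATCA in Jun (45 bases before; chr4:95052223-95052472, minus strand).
Egr2: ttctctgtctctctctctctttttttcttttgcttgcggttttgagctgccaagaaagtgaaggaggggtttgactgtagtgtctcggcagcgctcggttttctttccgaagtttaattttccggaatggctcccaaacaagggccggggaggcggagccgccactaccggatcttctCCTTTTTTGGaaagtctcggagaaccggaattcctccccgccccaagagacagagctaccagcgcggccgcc
Ier3: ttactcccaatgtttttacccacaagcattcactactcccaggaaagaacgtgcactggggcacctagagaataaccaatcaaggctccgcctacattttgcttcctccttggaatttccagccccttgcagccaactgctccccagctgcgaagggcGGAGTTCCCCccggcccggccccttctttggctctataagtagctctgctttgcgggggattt
Fos: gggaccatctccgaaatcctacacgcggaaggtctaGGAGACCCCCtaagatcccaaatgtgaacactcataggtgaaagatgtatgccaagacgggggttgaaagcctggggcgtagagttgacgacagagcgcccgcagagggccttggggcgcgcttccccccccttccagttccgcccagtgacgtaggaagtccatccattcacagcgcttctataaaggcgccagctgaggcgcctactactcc
Jun: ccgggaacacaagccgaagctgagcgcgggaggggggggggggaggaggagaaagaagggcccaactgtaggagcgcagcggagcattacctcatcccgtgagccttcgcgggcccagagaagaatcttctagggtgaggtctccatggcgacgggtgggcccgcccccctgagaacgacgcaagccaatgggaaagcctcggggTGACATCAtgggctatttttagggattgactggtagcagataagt

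Of 32841 RefSeq windows of the same length, 1.47% held a CArG box, 7.25% an NF-kB site and 2.93% TGACATCA. The Fosb window also held an NF-kB site, 188 bases before the start, and the first Egr2 window held 2 overlapping ones. Fos had TATAAA 33 bases before the start (12.4% of all windows). CCAAT (33.9% of all windows) lay 65 bases before the start in Jun and 36 bases before in Junb. It was also found in Ier3 and, as the same shared site, in the 3 overlapping Egr2 windows. The Jund window (chr8:70697489-70697738) does not adjoin the GENCODE position given above for Jund, and the Atf3 window (chr1:191183334-191183583) lies inside the Atf3 gene. No window of these 8 genes held TGACGTCA (1.55% of all windows), TGANTCA (6.75%) or GCGTGGGCG (0.536%). These matches describe letters in a window, not bound sites.

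The 10 genes spanned a wide range of levels in control microglia. On the TPM scale, which is per transcript length, the control mean was highest for Junb, at 131 ± 26.4 (SD, n = 14), followed by Jun at 60.5 ± 10.2 and Jund at 46.3 ± 7.62. Ier2 (18.8 ± 5.02) and Atf3 (18.5 ± 5.27) came next and did not differ beyond their spread, and the same was true of Egr1 (6.17 ± 3.79) and Ier3 (5.20 ± 2.14). Egr2 averaged 1.54 ± 1.2 TPM and Fos 0.597 ± 1.01. Fosb was at 0.00234 ± 0.00874 TPM, so the abundant AP-1 transcripts of control microglia were those of the Jun genes. Neighbouring levels overlapped even for Junb and Jun, since the lowest control for Junb was at 80.1 TPM and the highest for Jun at 81.7.

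In late disease 6 of the 9 tested genes rose and none fell, by edgeR's quasi-likelihood test with Benjamini-Hochberg adjustment over 13501 genes and a threshold of 0.05. Of all genes tested, 15.4% passed and 9.01% passed as higher. The 6 were Ier3, Fos, Egr2, Egr1, Ier2 and Atf3, and the 3 that did not pass were Jun, Junb and Jund. The median log2 fold change of the 9 was 1.42, against 0.02 for all genes. In recovery 3 genes rose (Egr2, Egr1 and Atf3) and none fell, where 3.98% of all genes passed and 2.87% passed as higher; the median was 0.49, against -0.01 for all genes. In early disease edgeR called 0 of 9 (0.00741% of all genes), DESeq2 also called 0 (1.02% of all genes), and 2 genes, Egr1 and Egr2, had an unadjusted p under 0.05; the median was 0.32, against -0.002 for all genes. Because these are bulk samples, a change in the number of cells of one type cannot be told apart from a change in RNA per cell.

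**Figure D1:**
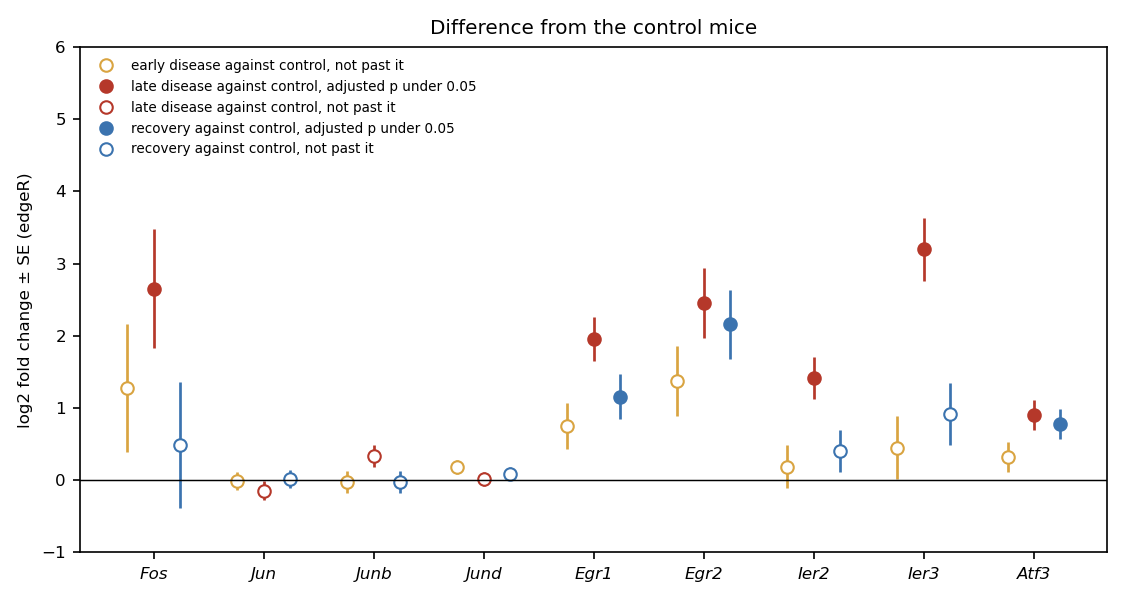
Log2 fold change of each tested gene against the 14 controls (vertical axis, ± SE, edgeR) in early disease, late disease and recovery; filled points passed an adjusted p of 0.05. Filled points are seen for 6 genes in late disease and 3 in recovery, while Jun, Junb and Jund lie near 0 in each comparison.

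Date code and disease stage overlap only in part, and this bears on the late comparison. With the date code as a term, the values of the 6 genes were log2 1.34 (Fos), 1.85 (Egr2), 1.49 (Ier2), 1.98 (Egr1), 2.78 (Ier3) and 0.84 (Atf3). None of them passed (adjusted p = 0.152 for Ier3, the lowest), and 0.133% of all genes did. Against only the 5 controls that share date codes with the disease libraries, 4 of the 6 passed (Egr1, Egr2, Ier2 and Ier3), where 1.41% of all genes did. With each library's TPM share (above) as a term, Egr2, Ier2 and Ier3 passed, at 2.67, 1.89 and 3.63, where 1.87% of all genes did. Egr1 was then at 1.54 (adjusted p = 0.0532), Atf3 at 0.84 (0.099) and Fos at 1.59 (0.632).

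Fos, an AP-1 gene and partner of the Jun proteins, was close to the detection limit. It was at 0 counts in 6 of 14 controls, where 3 counts would equal 0.157 to 0.216 CPM. Controls ran from 0 to 5.01 CPM with a median of 0.149, and early libraries from 0.174 to 2.53 with a median of 0.985. Late libraries ran from 0.525 to 24.0 CPM with a median of 1.58, and all 7 lay above the control median, but 1 of 7 lay above the highest control. Fos rose in late disease by log2 2.66 ± 0.83 (SE; adjusted p = 0.0261). The rise rested on 1 library: without late library 6, at 24.0 CPM, the change was 1.54 (adjusted p = 0.273). Without control 9, the control at 5.01 CPM, it was 3.49. Recovery libraries ran from 0 to 1.79 CPM and overlapped the controls fully, with a change of 0.49 ± 0.87 (adjusted p = 0.84).

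Fosb, a Fos relative with a longer-lived splice form, was not tested. It had a count in 6 of 35 libraries, at most 4 counts, and those were 1 control, 2 late and 3 recovery libraries. All 7 early libraries were at 0 counts, which allows up to 3 counts, or up to 0.194 CPM, in each.

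Jun, a zipper partner in AP-1 that stress-activated kinases phosphorylate, was steady. Controls ran from 82.4 to 165 CPM (median 109), late libraries from 70.0 to 154 (median 98.7) and recovery libraries from 101 to 125.5 (median 121). The groups overlapped almost entirely, and the late change was -0.15 ± 0.13 (adjusted p = 0.495). Its sign turned in 5 of 15 other settings of the late comparison, so no direction is given. The antisense gene Junos overlaps Jun and reached 1.27 CPM at most, far under the Jun values. Whether the reads tell the strands apart was not tested.

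Junb, which can stand in for Jun in AP-1 and restrains its activity at some genes, was the most abundant of the 10. Controls ran from 116 to 194 CPM (median 137) and late libraries from 122 to 298 (median 150). Late libraries 3 (269 CPM) and 6 (298 CPM) lay above every control, and the other 5 lay within the control range. The late change was 0.34 ± 0.15 (adjusted p = 0.125), and -0.04 (adjusted p = 0.923) without those 2 libraries. Junb passed with limma on log2(TPM + 1), at 0.46 (adjusted p = 0.0285), a scale on which 21.4% of all genes passed and the median of all genes was 0.18. Recovery ran from 96.3 to 185 CPM, with 3 of 7 libraries under the lowest control, a change of -0.03 ± 0.15. Prdx2 overlaps Junb on the opposite strand at 22.8 to 79.8 CPM, so the split of reads between them is uncertain.

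Jund, the member of the family that is expressed without a stimulus in most cells, ran from 62.1 to 97.6 CPM in controls, 81.1 to 98.8 in early disease, 54.0 to 98.3 in late disease and 71.9 to 98.4 in recovery. All 7 early libraries lay above the control median of 75.3 CPM, and 1 lay above the highest control. The early change was 0.18 ± 0.09 (adjusted p = 0.424). With limma on log2(TPM + 1) it was 0.42 (adjusted p = 0.0232), where 10.5% of all genes passed and their median was 0.22. The late change was 0.01 ± 0.09 and the recovery change 0.09 ± 0.09.

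**Figure D2:**
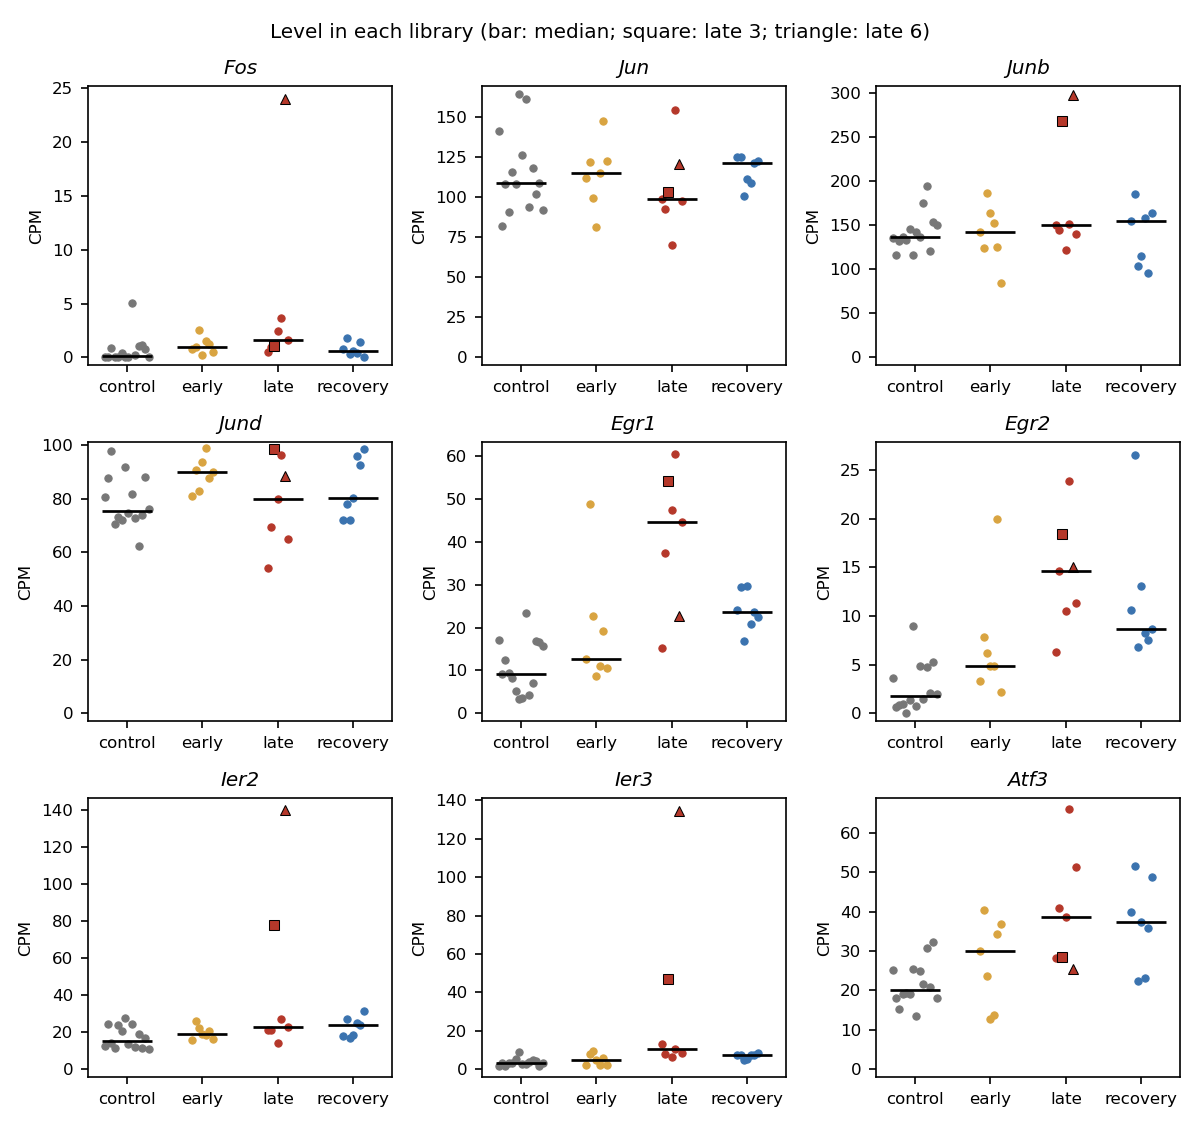
Level of the 9 tested genes in every library (vertical axes, CPM, linear, each with its own range), with the group median as a bar; late library 3 is a square and late library 6 a triangle. Egr1, Egr2 and Atf3 sit higher over most late and recovery libraries, while for Ier2 and Ier3 the square and the triangle stand above the rest of the late group.

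Egr1, a zinc finger factor induced by serum response factor and MAP kinase signals, was higher across the late group. Controls ran from 3.39 to 23.4 CPM (median 9.26) and early libraries from 8.71 to 49.0 (median 12.6). Late libraries ran from 15.3 to 60.5 CPM with a median of 44.6, and 5 of 7 lay above the highest control. Egr1 rose by log2 1.95 ± 0.31 (adjusted p = 8.63e-05), and by 2.01 (adjusted p = 0.00063) without late libraries 3 and 6. In recovery the range was narrow, 16.75 to 29.8 CPM with a median of 23.6, and 4 of 7 libraries lay above the highest control. That rise was 1.16 ± 0.31 (adjusted p = 0.0269), and the call was lost without recovery library 2 or without library 3. The early change was 0.75 ± 0.32 (adjusted p = 0.307), and 1 early library, number 3, was at 49.0 CPM while the other 6 reached at most 22.7.

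Egr2, also called Krox20 and known in macrophages as a factor of alternative activation, had the most late libraries above the highest control, 6 of 7. Controls ran from 0 to 8.98 CPM (median 1.74), early libraries from 2.21 to 20.0 (median 4.88) and late libraries from 6.30 to 23.8 (median 14.6). The lowest late library lay within the control range and the other 6 above it. Egr2 rose in late disease by log2 2.46 ± 0.48 (adjusted p = 0.000973). It rose in recovery by 2.16 ± 0.48 (adjusted p = 0.00607), where libraries ran from 6.85 to 26.6 CPM and 3 of 7 lay above the highest control. The early change was 1.38 ± 0.48 (adjusted p = 0.228), with all 7 libraries above the control median.

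**Figure D3:**
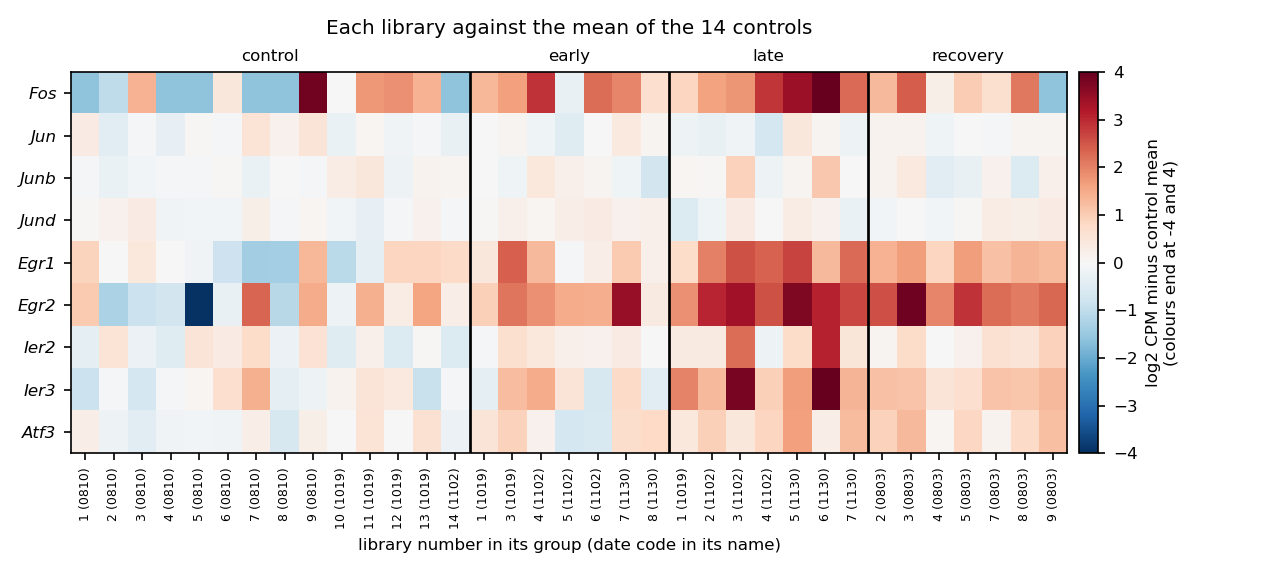
Difference of each library's log2 CPM from the mean of the 14 controls (colour, ending at -4 and 4), for 9 genes (rows) and 35 libraries (columns, ordered by group and date code). Red fills the Egr1 and Egr2 rows across late disease and recovery, and the deepest red for Ier2 and Ier3 is in late libraries 3 and 6.

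Ier2, a small nuclear protein of the immediate early response, ran from 11.1 to 27.4 CPM in controls (median 15.4) and from 16.0 to 25.8 in early disease. In late disease, library 6 was at 140 CPM and library 3 at 77.6, and the other 5 ran from 14.1 to 27.3, within the control range. The fitted rise was log2 1.42 ± 0.29 (adjusted p = 0.00137). It was 0.82 (adjusted p = 0.0227) without late library 6, and 0.32 (adjusted p = 0.409) without both. Recovery libraries ran from 16.7 to 31.4 CPM, a change of 0.41 ± 0.29 (adjusted p = 0.517).

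Ier3, known as IEX-1, a stress-inducible regulator of apoptosis and a common NF-kB target, had the largest late change of the 9 tested genes with all libraries in the fit, a rank it lost to Egr2 without late library 6. Controls ran from 1.69 to 8.84 CPM (median 3.11) and early libraries from 2.03 to 9.34 (median 4.71). In late disease library 6 was at 134.5 CPM and library 3 at 47.1, while the other 5 ran from 6.36 to 13.2. Ier3 rose by log2 3.20 ± 0.44 (adjusted p = 8.45e-06), with 4 of 7 libraries above the highest control and 7 of 7 above the control median. Without late library 6 the rise was 2.10 (adjusted p = 9.8e-05), and without both libraries it was 1.43 (adjusted p = 0.00614). DESeq2 gave a change of 3.21 and no p for Ier3. Recovery libraries ran from 4.65 to 8.21 CPM, all within the control range and all above the control median, a change of 0.91 ± 0.43 (adjusted p = 0.26).

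Atf3, a bZIP factor induced by cell stress that pairs with Jun proteins and mostly represses, moved less but over many libraries. Controls ran from 13.5 to 32.3 CPM (median 20.1), early libraries from 12.8 to 40.4 (median 30.0) and late libraries from 25.5 to 66.2 (median 38.6). Atf3 rose in late disease by log2 0.91 ± 0.21 (adjusted p = 0.00321), and by 1.09 (adjusted p = 0.00354) without late libraries 3 and 6, which were the fifth and the lowest of the late group for this gene. In recovery the range was 22.5 to 51.5 CPM with 5 of 7 libraries above the highest control. That rise was 0.78 ± 0.21 (adjusted p = 0.0238), and the call was lost when recovery library 2, 3 or 9 was left out.

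Late library 6 thus held the highest value of its group for Fos, Junb, Ier2 and Ier3. It also had the lowest summed microglia markers of all late libraries (45040 CPM, with late library 1 next at 47380). Its summed monocyte markers were the highest, at 158 CPM against 32.0 to 59.1 in the other 6. Of that sum, 119.7 CPM was Fn1 alone. Ms4a4c was also highest there (21.1 CPM), while Ly6c2 reached at most 0.745 CPM in any late library. Summed border macrophage markers were highest in late library 6 too, at 44.0 CPM, with late library 3 next at 23.7. Summed astrocyte markers were at 244 CPM there. They ran from 177 (late library 1) to 2728 CPM (late library 4) in late disease and from 217 to 1823 in controls. The part of these markers in the values of late library 6 was not tested. Leaving out late libraries 3 and 6, a choice made after their values were seen, left 4 genes past the threshold (Egr1, Egr2, Ier3 and Atf3), where 4.61% of all genes passed.

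**Figure D4:**
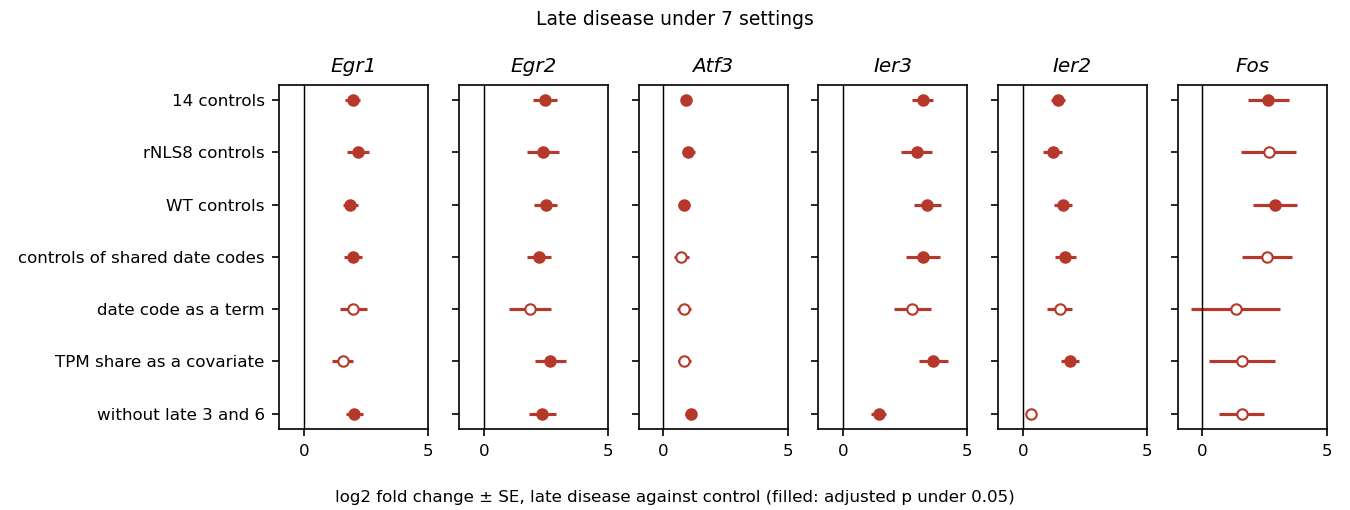
Late disease against control for the 6 genes that rose, under 7 settings (rows): log2 fold change ± SE on the horizontal axis, filled where adjusted p was under 0.05. All values lie above 0; no point is filled with date code as a term, and Ier2 and Fos are open without late libraries 3 and 6.

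In recovery the neutrophil and monocyte markers were highest in libraries 3, 7 and 9, with neutrophil sums of 5185 to 7770 CPM against 794 to 2501 in the other 4. Without these 3 libraries, also a choice made after the data were seen, the changes were 1.15 for Egr1, 1.87 for Egr2 and 0.65 for Atf3, and none passed (adjusted p = 0.203, 0.135 and 0.286), where 0.674% of all genes did. The part of blood-derived cells in the recovery values was not tested beyond this. Against the 6 rNLS8 controls alone, the recovery changes were 1.39 for Egr1, 2.08 for Egr2 and 0.87 for Atf3, each just short of the threshold (adjusted p = 0.0508, 0.0574 and 0.0556; 5.35% of all genes passed). Against the 8 WT controls alone only Egr2 passed, at 2.20 (adjusted p = 0.00551; 2.3% of all genes passed). With the TPM share as a term Egr2 again passed alone of the 9, at 2.35 (adjusted p = 0.0316; 1.87% of all genes passed).

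Between the disease stages themselves, Ier3 alone passed by edgeR. It was higher in late than in early disease by log2 2.75 ± 0.55 (adjusted p = 0.0135; 0.741% of all genes passed, 0.6% as higher), and every late library lay above the early median. It was lower in recovery than in late disease, by -2.28 ± 0.53 (adjusted p = 0.0371; 0.585% of all genes passed, 0.244% as lower). With the date code as a term the late against early value was 2.46 (adjusted p = 0.04; 0.63% of all genes passed). DESeq2 gave no p for Ier3 and called Egr1 and Ier2 in late against early disease, where 2.64% of all genes passed. Both Ier3 calls were lost without late library 6, where the values were 1.70 and -1.18. Both were also lost without late library 3. The late against early call was further lost without early library 6, and the recovery against late call without late library 1 or without any 1 of 6 recovery libraries. Egr1 had intermediate values in recovery, below late disease by -0.80 ± 0.37 (adjusted p = 0.272), while Egr2 and Atf3 differed from late disease by -0.30 ± 0.57 and -0.13 ± 0.24. By edgeR, 0 of 9 genes passed for recovery against early disease (0.793% of all genes), with 0 at an unadjusted p under 0.05.

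The control subgroups gave no call. Between the 6 rNLS8 controls on doxycycline and the 8 WT controls, edgeR called 0 of 8 tested genes (0.00805% of all genes). At an unadjusted p under 0.05 there were also 0. Fos and Fosb were not among the tested genes here. All WT controls had been off doxycycline, so genotype cannot be told apart from diet in this comparison. The rNLS8 controls all had the code 0810, while the WT controls had 0810, 1019 or 1102. Interaction terms of sex with early disease, late disease and recovery also gave 0 calls of 9 in each (0% of all genes in each). Each had 0 at an unadjusted p under 0.05. The late females all had the code 1102, and the late males had 1019 or 1130. Within late disease, sex thus cannot be told apart from date code. Egr1 in controls, for example, had medians of 6.72 CPM in the rNLS8 mice on doxycycline and 11.9 CPM in the WT mice 2 weeks off it.

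The counts of the 6 related lists that follow stand beside 15.4% of all genes passing in late disease (9.01% higher, the rest lower) and 3.98% in recovery, and the lists were not tested as sets. Of 30 other immediate early genes, 23 were tested. In late disease 8 rose and 2 fell, with a median log2 fold change of 0.69. The largest rises were in Dusp1, a phosphatase that switches MAP kinases off (3.23 ± 0.67), Gadd45b, a growth arrest and stress gene (2.56 ± 0.63), and Socs3, a feedback inhibitor of cytokine signalling (1.89 ± 0.44). Rhob, a small GTPase, and Btg2, an antiproliferative gene, fell, by 0.89 and 0.35 on the log2 scale. Dusp1 was at 510 CPM in late library 6 while its late median was 7.11 CPM and its control median 6.61. Without that library Dusp1 was at 0.47 (adjusted p = 0.425) and Socs3 at 0.15 (adjusted p = 0.679), and Btg2 was at -0.23 (adjusted p = 0.0106). Gadd45b was at 1.93 (adjusted p = 0.0893) without late libraries 3 and 6. Without them this list had 2 that rose and 2 that fell, with a median of -0.04. In recovery edgeR called 0 of the 23, with 2 at an unadjusted p under 0.05, and DESeq2 also called 0.

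Of 15 other AP-1 and bZIP partner genes, 14 were tested, and in late disease 2 rose and 2 fell, with a median of 0.15. Maff and Mafk, small MAF proteins that lack an activation domain, rose by 2.76 ± 0.52 and 0.95 ± 0.20. Mafk was at 0.52 (adjusted p = 0.0116) without late library 6 and at 0.38 (adjusted p = 0.0965) without late libraries 3 and 6. Maf, a large MAF factor expressed in macrophages, fell by 0.32 on the log2 scale and did not pass without late library 6. In recovery only Maff rose, by 3.22 ± 0.53, from a control median of 0.0963 CPM to 1.35 CPM. Without recovery libraries 3, 7 and 9 it was at 3.21 (adjusted p = 0.00488).

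Upstream, among 22 genes of the SRF, CREB and MAP kinase route, 2 rose and 3 fell in late disease (median -0.03), all by less than 1 on the log2 scale. Mapkapk2, a kinase activated by p38, rose by 0.61 ± 0.12, and Map2k7, a kinase that activates JNK, by 0.86 ± 0.29. Creb1, which encodes the CREB factor, fell by 0.49 and Mapk14 (p38 alpha) by 0.25. Map2k7 lost its call without late library 1, 3 or 6 or any of 5 controls, and Creb1 lost it without late library 3 or 6. In recovery edgeR called 0 of 22, with 6 at an unadjusted p under 0.05, and DESeq2 called 1.

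Downstream, of 16 textbook AP-1 and EGR1 target genes 13 were tested. Of these, 8 rose in late disease (median 1.31) and 8 in recovery (median 1.67), and none fell. Ccl3, a chemokine, rose by 2.37 ± 0.32 in late disease, from a control median of 15.2 CPM to 93.4, and by 2.44 ± 0.32 in recovery. Plaur, the urokinase receptor, rose by 2.27 ± 0.28 in late disease, and by 1.82 without late libraries 3 and 6. Vegfa, an angiogenic growth factor, rose by 3.41 ± 0.84 and 4.45 ± 0.82 from a control median of 0, at no more than 1.64 CPM in late disease and 4.02 CPM in recovery. In recovery Mmp12, a macrophage elastase, rose by 2.87 ± 0.58. Mmp9, a gelatinase that is also on the neutrophil marker list, rose by 4.09 ± 1.03, lost its call without recovery library 3 or 9, and was at 2.27 (adjusted p = 0.61) without recovery libraries 3, 7 and 9. The late count was 8 without late libraries 3 and 6, and the recovery count was 5 without recovery libraries 3, 7 and 9.

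Stress genes moved in different directions. Of 8 genes of the ATF4 stress response, in which Atf3 also takes part, 4 rose in late disease (median 0.61), among them Chac1, a glutathione-degrading enzyme (2.25 ± 0.75), Asns, asparagine synthetase (1.77 ± 0.50), and Ppp1r15a, a phosphatase subunit (0.75 ± 0.20). Without late libraries 3 and 6 the count was 0. Chac1 lost its call without late library 3, 5 or 7 or control 3 or 9, and Ppp1r15a was at 0.43 (adjusted p = 0.111) without late library 6. In recovery edgeR called 0 of 8, with 2 at an unadjusted p under 0.05, and DESeq2 called 1. Of 12 tested heat shock genes, which are induced by warming and handling, 8 fell and none rose in late disease (median -0.62). Hspa1b fell by 1.86, Dnaja1 by 0.96 and Dnajb1 by 0.81 on the log2 scale, and their summed list ran from 1722 to 3162 CPM in controls and from 1090 to 2093 in late disease. Hspa1b lost its call without late library 1, 3 or 6 or control 3. Without late libraries 3 and 6, 4 of the 12 fell. In recovery 2 fell, Dnaja1 by 0.48 and Dnajb1 by 0.40, and none did without recovery libraries 3, 7 and 9; Dnaja1 lost its call without recovery library 2, 4, 5 or 9, and Dnajb1 without any 1 of 6 recovery libraries or 4 controls. With the date code as a term, none of the genes of these 6 lists passed in late disease. In early disease edgeR called 0 genes in each of the 6 lists, with 0 to 5 per list at an unadjusted p under 0.05, and DESeq2 called 1 gene, in the list of other immediate early genes.

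**Figure D5:**
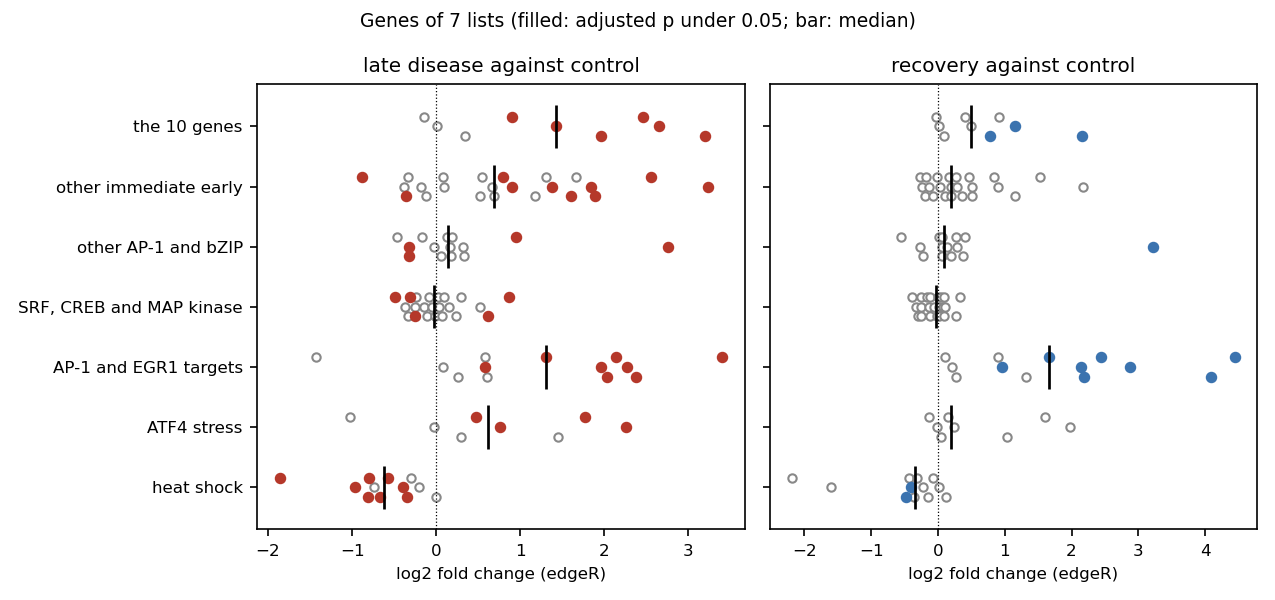
Log2 fold change (horizontal axis, edgeR) of each tested gene of the 10 and of 6 related lists, in late disease and in recovery against control; filled points passed an adjusted p of 0.05 and bars are list medians. The medians of the target genes lie right of 0 in both panels (1.31 and 1.67) and those of the heat shock genes left of it.

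The 3 genes whose log2 CPM most resembled each of the 9 tested genes over the 35 libraries were different for each; r is Pearson's and is given as a description, since these libraries share groups and date codes. Egr1 was closest to Clic4 (r = 0.88), Gem (0.85) and Sulf2 (0.84), and Egr2 to Slc25a25 (0.80), Alcam (0.79) and Rell1 (0.79). Atf3 was closest to Dcstamp (0.78), Itgax (0.78) and Ccl4 (0.76). Ier3 was closest to Slc6a6 (0.82), Tmem189 (0.81) and Id2 (0.80), and Ier2 to Ccdc86 (0.81) and Echs1 (0.77). Without late library 6 these last values fell to between 0.58 and 0.69, while those of Egr1, Egr2 and Atf3 stayed at 0.76 or above. For Fos the closest were Hat1 (0.71), Nfkbiz (0.71) and Zwint (0.69), and for Junb Tspan4 (0.74), Leprot (0.72) and Ms4a6c (0.71). These too fell without late library 6, to 0.64, 0.67 and 0.64 for Fos and to 0.65, 0.6 and 0.58 for Junb. Jund was closest to Egln1 (0.68), Atp6v0d1 (0.67) and Cebpa (0.64), and Jun to Slc35b1 (0.59), Cct7 (0.58) and Nup85 (0.57), the lowest values of the 9.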

How the data were processed

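The authors deposited expected counts and TPM per gene; the submitters' processing notes name RSEM, DESeq2 and mm10. The deposited expected counts were rounded to whole numbers. The deposited TPM values were used for levels and for the limma fits. For edgeR and DESeq2, edgeR's filterByExpr function, applied to the counts by group, kept 13501 genes. The filtered limma fits instead kept genes with at least 1 TPM in 6 libraries, which were 13188 genes. Gene positions and symbols come from GENCODE M21, which matched 45143 identifiers. One edgeR 4.0.16 quasi-likelihood fit covered all 35 libraries with group and sex, with TMM factors and Benjamini-Hochberg adjustment over all genes tested. DESeq2 1.42.0, limma 3.58.1 on log2(TPM + 1) and log2(TPM + 0.1), other control sets, date code, TPM share and left-out libraries were alternatives; the edgeR step was tested on simulated data. Genes named are the 10, up to 3 called genes in each direction per list, and the 3 closest genes by correlation; 3 genes that this rule names are not reported here. CPM is scaled to the counts of the genes kept for edgeR and to the TMM factors. Members and lists were chosen with earlier results of these data known. One of the sex columns of the deposited sample table differs from the labels for 2 control libraries, and the labels' sex was used. Replicate numbers were not found to pair mice.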

Additional observations from a re-analysis of the deposited data

Results flagged for a closer look

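In 27 sets of 7 libraries (9 genes in early disease, late disease and recovery), 5 held a library far from the others on the CPM scale. On the log2 scale 0 did. The measure was the library's gap to the nearest library over the range of the group. Chance gives about 1 in 20 for normally distributed values, and whether CPM values are so distributed was not tested. Fos in late library 6 was at 24.0 CPM against 0.525 to 3.69 in the other 6 (gap over range 0.865). Ier3 in late library 6 was at 134.5 CPM against 6.36 to 47.1 (0.682). Egr1 in early library 3 was at 49.0 CPM against 8.71 to 22.7 (0.651). Egr2 in early library 7 was at 20.0 CPM against 2.21 to 7.88 (0.682). Egr2 in recovery library 3 was at 26.6 CPM against 6.85 to 13.1 (0.682). For Ier3, the effect in late disease was larger than that in early disease by log2 2.75, and the effect in recovery differed from that in late disease by -2.28, both by a direct test of the difference in edgeR.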

How the results depend on the processing

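The late count was 6 of 9 genes. It was 0 with the date code as a term, 3 with the TPM share as a term, and 5 to 6 with any 1 library left out. The recovery count of 3 was 0 against rNLS8 controls, 1 against WT controls, 1 with the TPM share, 0 without recovery libraries 3, 7 and 9, and 1 to 3 with 1 library left out. The early count of 0 became 3 with limma on log2(TPM + 1) and 3 on log2(TPM + 0.1) (Egr1, Egr2 and Jund), and 1 (Jund) without the filter; with 1 library left out it was 0 to 0. On these TPM scales the all-gene median moved to 0.22 and 0.26. The late against early count of 1 was 2 with DESeq2, 0 with limma without a filter, 0 without late libraries 3 and 6, and 0 to 2 with 1 library left out. The recovery against late count of 1 was 0 with DESeq2 (no p for Ier3), with each of the 3 limma fits, without late libraries 3 and 6, without recovery libraries 3, 7 and 9, and 0 to 1 with 1 library left out. With a replicate block the late count was 6, the recovery count 2, the late against early count 0 and the recovery against late count 0; same-numbered libraries did not pair, with correlations of deviations of -0.201 to 0.137 over 37 pairs. No called change turned its sign. The settings without late libraries 3 and 6 and without recovery libraries 3, 7 and 9 were chosen after seeing the data, and the causes of these changes were not tested. At this depth Fos was at 0 counts in 6 controls and Fosb had a count in 6 of 35 libraries.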
